A study of Mus musculus with 4 samples.

Results

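The 8 genes described here, Gas5, Snhg1, Snhg3, Snhg5, Snhg6, Snhg8, Snhg12 and Zfas1, are noncoding genes that carry small nucleolar RNAs (snoRNAs) inside them. They were chosen by name, and all 8 were found among the 54532 genes of the deposited expression table. RNA sequencing was done on 4 mouse libraries, 2 labelled WT and 2 labelled Piezo1KO, a label that names loss of the mechanically gated ion channel Piezo1. By the labels all 4 are CD4+ T cells that were sorted out of tumours grown from the melanoma line B16, and the series asks how Piezo1 acts on T cells that make interleukin 9. The labels used here give no age, strain, time or means of removing Piezo1. Nothing in them states that libraries of a group come from separate animals, so the spread behind each p-value may be technical. WT 1, WT 2, Piezo1KO 1 and Piezo1KO 2 follow the numbers in the sample titles. The deposited columns name them WT2, WT3, KO1 and KO2 in that order.

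A snoRNA host gene makes a long transcript whose introns hold snoRNAs. After splicing, exonucleases trim the freed intron back to the snoRNA, which joins core proteins and guides modification of ribosomal RNA. Box C/D snoRNAs guide 2′-O-methylation and box H/ACA snoRNAs guide pseudouridylation. The spliced exons of the noncoding hosts are known for starting with a tract of pyrimidines, as ribosomal protein mRNAs do (the 5′ terminal oligopyrimidine, or TOP, motif), and for rapid loss by nonsense-mediated decay when they are translated. Host exons and snoRNAs therefore have separate fates after splicing, and the level of a host does not set that of its snoRNAs.

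In GRCm38 coordinates of the deposited table, Gas5 (ENSMUSG00000053332) lies at chr1:161034422-161038539 on the plus strand. Snhg1 (ENSMUSG00000108414) lies at chr19:8723475-8726443 on the plus strand. Snhg3 (ENSMUSG00000085241) lies at chr4:132348014-132353686 on the minus strand. Snhg5 (ENSMUSG00000097195) lies at chr9:88521050-88522929 on the minus strand. Snhg6 (ENSMUSG00000098234) lies at chr1:9941959-9944118 on the minus strand. Snhg8 (ENSMUSG00000104960) lies at chr3:123507552-123508404 on the minus strand. Snhg12 (ENSMUSG00000086290) lies at chr4:132308623-132311024 on the plus strand. Zfas1 (ENSMUSG00000074578) lies at chr2:167062934-167065862 on the plus strand. All 8 are annotated as noncoding, and the values are counts over their exons.

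The host rows were not a measure of spliced RNA alone. The deposited gene length equalled the union of all annotated exons in GENCODE release M21 (GRCm38) for 8 of the 8 hosts. In Snhg1, Snhg8, Snhg12 and Zfas1 that union was 1 block that covered 100% of the gene, because exons of some annotated transcripts fill the gaps between exons of others. Of their annotated transcripts, 14 of 18, 1 of 3, 0 of 10 and 4 of 5 are of the retained intron class, in that order. The union covered 91.3% of Gas5, where 20 of 25 annotated transcripts are of that class, and 92.0% of Snhg5. It covered 53.1% of Snhg6 and 17.4% of Snhg3. A read in an intron of most hosts was thus counted as host, and spliced and unspliced host RNA cannot be told apart.

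The same annotation placed most snoRNAs inside host exons. The hosts held 32 snoRNA rows of the table on their own strand, 10 in Gas5, 8 in Snhg1, 5 in Snhg12, 3 in Zfas1, 2 each in Snhg3 and Snhg5, and 1 each in Snhg6 and Snhg8. Of these, 29 lay wholly and 1 partly within an exon of the host. The snoRNA Snora24, a box H/ACA RNA, shows this in a transcript of Snhg8, and the box C/D RNAs Snord47 and Snord12 show it in transcripts of Gas5 and Zfas1. The stretches are read from the GENCODE transcripts, with the snoRNA in capitals and 20 host bases on each side in lower case.
Snora24 in Snhg8 (snoRNA at chr3:123507937-123508066, minus strand): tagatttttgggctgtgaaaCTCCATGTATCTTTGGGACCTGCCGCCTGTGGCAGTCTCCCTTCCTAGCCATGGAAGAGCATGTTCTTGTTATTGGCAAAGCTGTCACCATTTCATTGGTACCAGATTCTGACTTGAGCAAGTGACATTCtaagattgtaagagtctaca
Snord47 in Gas5 (snoRNA at chr1:161038082-161038158, plus strand): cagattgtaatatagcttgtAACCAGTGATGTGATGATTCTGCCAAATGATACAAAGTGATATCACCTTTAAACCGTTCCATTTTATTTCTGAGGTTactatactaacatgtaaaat
Snord12 in Zfas1 (snoRNA at chr2:167065276-167065365, plus strand): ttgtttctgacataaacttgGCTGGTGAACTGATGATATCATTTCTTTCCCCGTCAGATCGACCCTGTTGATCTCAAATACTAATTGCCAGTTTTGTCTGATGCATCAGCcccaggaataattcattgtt

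Snord87, a box C/D RNA of Snhg6, is the 1 hosted snoRNA that overlapped no exon of any other gene, and it is shown because it was also the 1 hosted row with any read. It lies at chr1:9942463-9942549 on the minus strand, and no annotated Snhg6 transcript holds it. Capitals mark box C (TGATGA) near its start and box D (CTGA) near its end.
Snord87: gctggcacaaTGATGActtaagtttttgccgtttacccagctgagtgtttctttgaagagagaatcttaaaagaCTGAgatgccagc
Both boxes, TGATGA in the first 20 bases and CTGA in the last 20 on the RNA's own strand, were found in 20 of the 32 hosted rows (62.5%), against 20.5% of all 1507 snoRNA rows. An ACA in the last 6 bases without both boxes, as box H/ACA RNAs have, was found in 6 of the 32 (18.8%), against 45.0% of all. The letters C, T, G and A of these motifs were searched as written, and a row without a match may still be of either class.

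**Figure D1:**
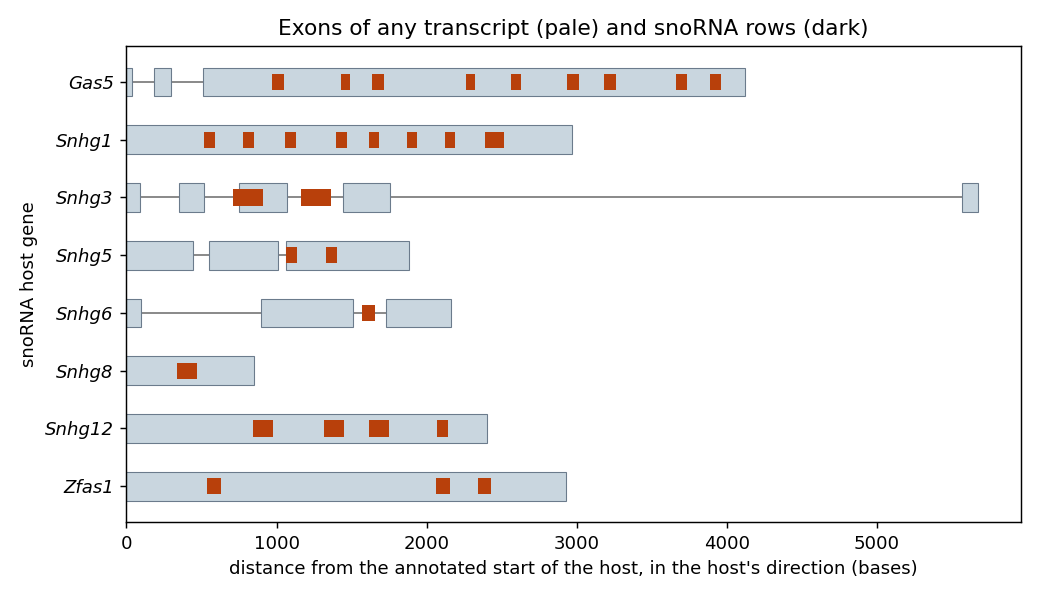
Maps of the 8 host genes (rows) along the distance in bases from each host's annotated start, in the host's direction. Pale blocks are the union of exons of all annotated GENCODE transcripts and dark blocks are snoRNA rows of the table: 29 of 32 lie wholly in a pale block, while the snoRNA of Snhg6 lies between blocks.

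The hosted snoRNAs gave almost no reads. Snord87 had 1 read in WT 1, 1 in WT 2 and 0 in both Piezo1KO libraries. The other 31 hosted rows had 0 reads in all 4 libraries. Reads of the hosts themselves numbered 2856 in WT 1, 3371 in WT 2, 1895 in Piezo1KO 1 and 3419 in Piezo1KO 2. All counts of Snord87 are under the floor of 3 reads used here for what a count of 0 allows, so no fold is given and no ratio of snoRNA to host was compared between groups.

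Across the whole table, 179 of 1507 snoRNA rows (11.9%) had a read in any library, and the share varied with where the row lies. Of 155 snoRNA rows that lie wholly inside exons of another gene on their strand, 0 had a read in any library. These are all such rows of the table, so no limit for a wider share is given. Of 470 rows that lie inside a gene on their strand and overlap no exon of another gene, 125 (26.6%) had a read, with 61 as the highest count of 1 row in 1 library. Of 844 rows outside genes on their strand, 45 (5.33%) had a read, so rows without reads were common there too. Reads were counted with featureCounts, which by default drops a read that overlaps exons of 2 genes. No source used here gives the setting. For these 8 hosts the table therefore does not measure whether the snoRNAs follow the host, and a listed 0 is not evidence that a snoRNA is absent.

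Assigned reads ran from 13789266 to 15892797 per library, of which mitochondrial genes took 3.86% in WT 1, 2.99% in WT 2, 20.1% in Piezo1KO 1 and 48.3% in Piezo1KO 2. In FPKM (fragments per base of gene length, scaled by library), Piezo1 itself stood at 27.8 and 27.6 in WT, 18.7 in Piezo1KO 1 and 7.64 in Piezo1KO 2 (log2 fold change -1.14, limma adjusted p = 0.166). Its 2735 and 569 reads in the Piezo1KO libraries do not bear out a full loss of the transcript, and which part of the gene the label's deletion removes is not known here, so each comparison is between libraries labelled Piezo1KO and libraries labelled WT. 10 melanocyte markers summed to 6784 to 6809 FPKM in WT and 7342 to 7465 in Piezo1KO, against 2.30 to 2.47 and 10.3 to 15.96 for 12 T cell markers, of which 5, 1, 0 and 2 were at 0 in the 4 libraries in order. Cd4 had 1 and 3 reads in WT and 35 and 9 in Piezo1KO, and these low levels go against the label, so the host values cannot be assigned to T cells. Summed levels of 6 erythroid markers (244 to 389 in WT, 5124 to 8472 in Piezo1KO), 10 myeloid markers (65.8 to 89.0 and 358 to 504) and 6 neutrophil markers (0.902 to 1.31 and 48.1 to 144) also separated the groups, and 5 erythroid, 5 myeloid and 2 neutrophil markers passed as higher in limma. 5 B cell markers summed to 1.99 to 2.05 and 2.11 to 7.40, and 8 fibroblast and endothelial markers to 6.83 to 10.8 and 9.47 to 15.99. The part of other cells, of the mitochondrial share or of RNA quality in the host values was not tested. In these bulk libraries, fewer cells of a type and less RNA per cell cannot be told apart.

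Of the 8 hosts, the 7 other than Snhg3 had a mean of at least 1 FPKM and were tested with limma on log2(FPKM + 1), a scale that understates the change of low genes. 0 of the 7 passed at an adjusted p under 0.05, against 1.10% of the 11085 genes tested (122 genes). By direction, 0.731% of all genes passed as higher in Piezo1KO and 0.370% as lower. The number of hosts at an unadjusted p under 0.05 was also 0, against 3170 of all genes. Limma's voom on recovered reads called 0 hosts. In voom 2 of the 7 had an unadjusted p under 0.05, against 4242 of all 11085 genes. The share of higher calls among all genes, 66.4%, was 85.3% at a mean of at least 5 FPKM and 56.1% with FPKM scaled to reads outside mitochondrial genes, where the median log2 fold change of all genes was -0.20. With scaling to every assigned read that share was 14.7% and that median -0.67. An exact permutation test of 2 libraries against 2 cannot go below p = 0.333.

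In deposited FPKM, Snhg8, Gas5, Snhg6, Zfas1 and Snhg12 were highest in 1 library, Piezo1KO 2. By FPKM in Piezo1KO 1, Snhg8 and Zfas1 lay above both WT libraries, Snhg12 between them, and Snhg6 and Gas5 below both. For each of these 5 hosts the Piezo1KO libraries lay farther apart on the log2(FPKM + 1) scale than the means of the groups. The highest library depended on scaling. As a share of all assigned reads, Gas5 was lower in Piezo1KO 2 than in both WT libraries, and Snhg12 was highest in WT 2. Snhg8, Snhg6 and Zfas1 stayed highest in Piezo1KO 2 by that share. As a share of reads outside mitochondrial genes, all 5 were highest in Piezo1KO 2. Fits that leave out 1 Piezo1KO library assume that the lone one varies as the WT libraries do. Without Piezo1KO 1, 5 hosts passed as higher in limma, against 27.5% of all genes higher and 25.4% lower. Without Piezo1KO 2, 1 host passed, as lower, against 9.71% of all genes higher and 4.54% lower.

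For Snhg8, host of Snora24, WT 1 gave 10.8 FPKM, WT 2 gave 10.4, Piezo1KO 1 gave 14.9 and Piezo1KO 2 gave 110.3, from 181, 180, 188 and 705 reads. Both Piezo1KO values lay above both WT values, but they lay 7.38-fold apart. Its log2 fold change was 1.86 with a standard error of 0.93 (limma adjusted p = 0.243). Without Piezo1KO 2 it was 0.46 (limma adjusted p = 0.0510), and without Piezo1KO 1 it was 3.27 (limma adjusted p = 0.00123).

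Zfas1 holds Snord12 and overlaps the start of Znfx1, a gene of the other strand. For Zfas1, WT 1 gave 6.41 FPKM, WT 2 gave 7.68, Piezo1KO 1 gave 9.31 and Piezo1KO 2 gave 30.6. The groups did not overlap. The log2 fold change was 1.17 with a standard error of 0.55 (limma adjusted p = 0.226). It was 0.36 without Piezo1KO 2 and 1.98 without Piezo1KO 1 (limma adjusted p of 0.153 and 0.00245).

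Snhg6, host of Snord87, stood at 13.5 FPKM in WT 1, 12.7 in WT 2, 12.4 in Piezo1KO 1 and 54.3 in Piezo1KO 2. Piezo1KO 1 lay just under both WT values and Piezo1KO 2 far above them. The log2 fold change of 0.95 (standard error 0.69, limma adjusted p = 0.373) turned to -0.074 without Piezo1KO 2. Without Piezo1KO 1 it was 1.97 (limma adjusted p = 0.00145).

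Gas5, named for its rise in growth-arrested cells and able to bind the glucocorticoid receptor, stood at 18.6 FPKM in WT 1, 19.5 in WT 2, 11.4 in Piezo1KO 1 and 42.4 in Piezo1KO 2, from 1376, 1490, 634 and 1195 reads. In FPKM the Piezo1KO libraries lay on opposite sides of WT, at 0.601 and 2.23 times the WT mean. The log2 fold change was 0.22 with a standard error of 0.61 (limma adjusted p = 0.817). Taken alone against WT, each Piezo1KO library passed, in opposite directions: -0.69 without Piezo1KO 2 (limma adjusted p = 0.0244) and 1.12 without Piezo1KO 1 (limma adjusted p = 0.00304). With scaling to all assigned reads it was -0.57 and in voom -0.61, neither past the threshold, so no direction is given for Gas5.

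Snhg12, host of Snora16a, Snora44, Snora61 and Snord99, stood at 2.998 FPKM in WT 1, 4.399 in WT 2, 3.13 in Piezo1KO 1 and 8.11 in Piezo1KO 2. Piezo1KO 1 lay between the WT values. The log2 fold change was 0.40 (standard error 0.42, limma adjusted p = 0.526), -0.17 without Piezo1KO 2 and 0.97 without Piezo1KO 1 (limma adjusted p = 0.0256). With scaling to all assigned reads it was -0.27 and in voom -0.35.

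Snhg1 and Snhg5 were not highest in Piezo1KO 2. Snhg1, which holds Snord22 among its 8 snoRNA rows, stood at 6.37 FPKM in WT 1, 9.47 in WT 2, 6.14 in Piezo1KO 1 and 9.03 in Piezo1KO 2, so the groups overlapped (log2 fold change -0.05, standard error 0.26, limma adjusted p = 0.896). Snhg5, host of Snord50a and Snord50b, stood at 3.22 and 4.52 in WT against 3.21 and 2.62 in Piezo1KO, from 110, 159, 82 and 34 reads. Both Piezo1KO values of Snhg5 lay below both WT values, Piezo1KO 1 by a margin within the last printed digit (log2 fold change -0.31, standard error 0.20, limma adjusted p = 0.327).

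Snhg3, host of the H/ACA RNAs Snora73a and Snora73b, had 1 read in WT 2 and 0 in the other 3 libraries. A count of 3 reads would equal 0.154 FPKM in WT 1, 0.150 in WT 2, 0.206 in Piezo1KO 1 and 0.406 in Piezo1KO 2. Of its 986 exon bases, 86.3% are shared with exons of Rcc1, Gm17300 or Snora73a when strand is ignored, and 29.8% with exons of genes on its own strand. No source used here gives the strand setting. Rcc1, a nucleotide exchange factor for Ran whose annotated gene overlaps Snhg3 on the same strand, stood at 11.8 and 12.5 FPKM in WT against 10.4 and 11.03 in Piezo1KO (log2 fold change -0.17, limma adjusted p = 0.390). In the other hosts 8.32% to 20.9% of exon bases are shared with exons of other genes on either strand, mostly the hosted snoRNAs.

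**Figure D2:**
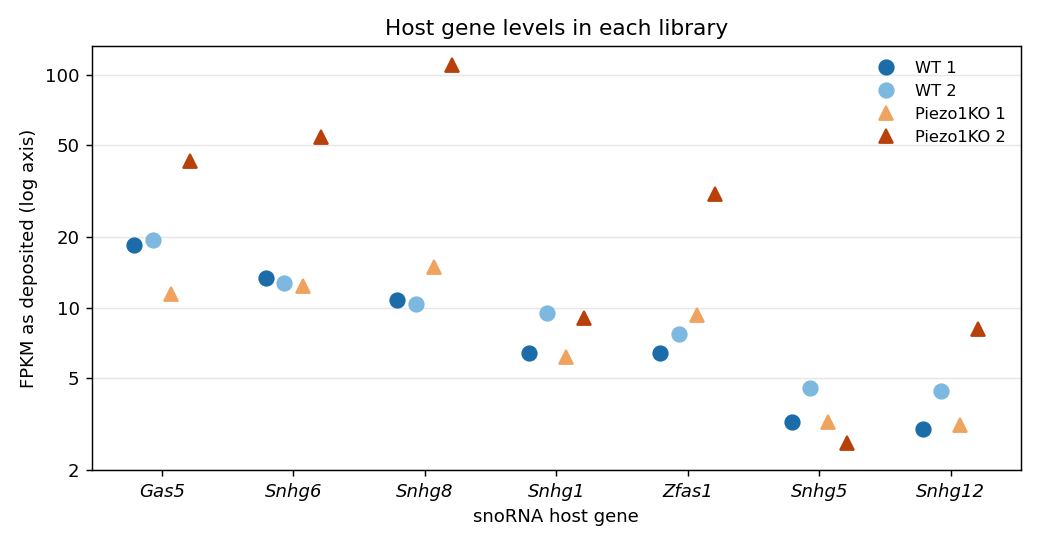
FPKM as deposited, on a log axis, of the 7 tested hosts in each library (circles WT, triangles Piezo1KO). Piezo1KO 2 is the highest library for Gas5, Snhg6, Snhg8, Zfas1 and Snhg12, reaching 110.3 for Snhg8, and the lowest for Snhg5 at 2.62, and Snhg3 is not drawn because it had 1 read in all.

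Without a test, 2 hosts did not overlap upward in deposited FPKM (Snhg8 and Zfas1) and 1 downward (Snhg5), against 33.9% and 35.6% of all genes. The median log2 fold change of the 7 tested hosts was 0.40, against -0.01 for all genes. By library, the host median lay -0.17 from the WT mean in Piezo1KO 1, where 2 of 7 hosts were above it, and 1.12 from it in Piezo1KO 2, where 6 of 7 were above it. The medians of all genes were -0.00246 and -0.0110.

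The spread between the Piezo1KO libraries was large for most hosts beside all tested genes, as it was for ribosomal protein genes. Piezo1KO 2 exceeded Piezo1KO 1 by 2.80 for Snhg8, 2.05 for Snhg6, 1.80 for Gas5, 1.62 for Zfas1 and 1.14 for Snhg12 on the log2(FPKM + 1) scale, and 95% of all tested genes lay under 1.06. Snhg1 had 0.49 and Snhg5 had -0.22, and the quartiles of all genes were -0.29 and 0.30. These 7 values come from 2 libraries and have no replicate. Their median was 1.62, beside 1.43 for 77 ribosomal protein genes and 0.89 for 6 other genes listed as noncoding snoRNA hosts. It was -0.005 for 187 protein-coding snoRNA hosts and 0.39 for 238 tested lincRNA, processed transcript and antisense genes. Gene length moved with the same difference. Its median was 0.59 over 1094 tested genes under 1000 bases, 0.34 over 1295 of 1000 to under 2000 bases, 0.05 over 3161 of 2000 to under 4000 bases and -0.14 over 5535 of 4000 bases or more. The gene lengths of the hosts ran from 853 bases for Snhg8 to 3760 for Gas5, and with the length trend removed the log2 fold change between groups was 1.35 in place of 1.86 for Snhg8, 0.46 in place of 0.95 for Snhg6 and 0.16 in place of 0.40 for Snhg12. It was -0.70 in place of -0.31 for Snhg5, -0.17 in place of -0.05 for Snhg1, 1.04 in place of 1.17 for Zfas1 and 0.22 both ways for Gas5. The host median was 0.22 in place of 0.40, and 0 hosts passed in limma. The part of length in the host values was not tested further.

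The order of the hosts within a library does not depend on how the library was scaled. Per length, Gas5 was the highest host in both WT libraries, followed by Snhg6 and Snhg8. Snhg8 was the highest in both Piezo1KO libraries, followed by Snhg6 and then Gas5. The order does depend on the gene lengths, which are unions of all annotated exons. By reads, Gas5 was the highest host in all 4 libraries. It had 634 against 188 for Snhg8 in Piezo1KO 1 and 1195 against 705 in Piezo1KO 2. Of the summed FPKM of the 8 hosts, Gas5 took 30.04% in WT 1, 28.4% in WT 2, 18.9% in Piezo1KO 1 and 16.5% in Piezo1KO 2. Snhg8 took 17.4%, 15.1%, 24.7% and 42.9% in the same order. The groups did not overlap in either share, and both were picked after their values were seen. Snhg6 took 21.8%, 18.5%, 20.4% and 21.1%, with overlap.

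Neighbours in this order mostly differed beyond their spread in WT. Means of the WT libraries were 19.0 ± 0.648 for Gas5, 13.1 ± 0.537 for Snhg6, 10.6 ± 0.276 for Snhg8, 7.92 ± 2.19 for Snhg1, 7.05 ± 0.904 for Zfas1, 3.87 ± 0.914 for Snhg5 and 3.70 ± 0.991 for Snhg12 (FPKM, SD, n = 2 each). Snhg1 and Zfas1 overlapped, as did Snhg5 and Snhg12, and the other neighbours did not. Means of the Piezo1KO libraries were 62.6 ± 67.4 for Snhg8, 33.3 ± 29.6 for Snhg6, 26.9 ± 21.9 for Gas5, 19.96 ± 15.1 for Zfas1, 7.59 ± 2.04 for Snhg1, 5.62 ± 3.52 for Snhg12 and 2.92 ± 0.418 for Snhg5. There the first 4 overlapped with each other. Among all tested genes of its library, Snhg8 stood at percentile 64.7 and 63.3 in WT 1 and WT 2, 71.9 in Piezo1KO 1 and 95.1 in Piezo1KO 2.

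As a share of assigned reads outside mitochondrial genes, the 8 hosts took 0.0190% (exact 95% binomial interval 0.0183 to 0.0197%) in WT 1 and 0.0219% (0.0211 to 0.0226%) in WT 2. They took 0.0155% (0.0148 to 0.0162%) in Piezo1KO 1 and 0.0479% (0.0463 to 0.0496%) in Piezo1KO 2. The Piezo1KO libraries lay on either side of WT, and the intervals, which cover counting error only, do not overlap.

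The annotated starts of the hosts differ in the TOP motif that the family is known for. Windows of 20 bases before and 40 from the RefSeq start (GRCm38.p6) are shown for the 4 hosts with a RefSeq start that begins with a pyrimidine, with the run of pyrimidines that begins at the start in capitals. No window is shown for Snhg6.
Snhg8 (chr3:123508297-123508356, minus strand): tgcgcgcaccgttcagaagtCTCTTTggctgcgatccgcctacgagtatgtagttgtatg
Gas5 (chr1:161035146-161035205, plus strand): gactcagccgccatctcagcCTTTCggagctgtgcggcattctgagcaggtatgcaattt
Snhg12 (chr4:132308658-132308717, plus strand): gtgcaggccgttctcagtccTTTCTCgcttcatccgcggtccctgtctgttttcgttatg
Snhg1 (chr19:8723467-8723526, plus strand): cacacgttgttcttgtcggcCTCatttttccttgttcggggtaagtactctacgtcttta
A C at the start followed by at least 4 pyrimidines, on the gene's strand, was found at 2 of 8 RefSeq starts of the hosts (Snhg8 and 1 of the 2 starts of Gas5), against 2.51% of all 32851 RefSeq starts. Snhg12 has a run of 6 that begins with T, and Snhg1 a run of 3. Among GENCODE transcripts the same start was found in 5 of 25 of Gas5, 3 of 10 of Snhg12, 1 each of Snhg3, Snhg5, Snhg6, Snhg8 and Zfas1, and 0 of 18 of Snhg1, against 2.02% of all 141767. The starts in use in these libraries were not measured, and a start without the motif says only that these letters are not at that base.

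Ribosomal protein genes, the best known TOP mRNAs, are given side by side with the hosts. Of 77 tested, 0 passed in limma, with a median log2 fold change of 1.44 and 75 of 77 without overlap upward, against 33.9% of all genes. Their median lay 0.72 above the WT mean in Piezo1KO 1 and 2.20 above it in Piezo1KO 2, where the hosts had -0.17 and 1.12. Rpl28 and Rpl24 had log2 fold changes of 1.77 and 1.67 (limma adjusted p = 0.135 for each). The difference between the lists was not tested.

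Protein-coding genes that hold a snoRNA row on their strand showed a median log2 fold change of -0.07 over 187 tested, of which 0 passed in limma. 59 did not overlap upward and 77 downward, beside 33.9% and 35.6% of all genes. The 158 of them that are not ribosomal protein genes had a median of -0.15, and -0.19 in Piezo1KO 2. Eif2ak3, the endoplasmic reticulum stress kinase PERK, Eif5, an initiation factor, and Qtrt2, a subunit of the enzyme that puts queuine into tRNA, had the smallest p, with log2 fold changes of -0.89, -0.88 and -0.69 (limma adjusted p of 0.0717, 0.0916 and 0.102).

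Other genes listed by name as noncoding snoRNA hosts also varied in both directions. Of 15 found, 6 were tested and 0 passed in limma, with a median of 0.11. Snhg7os, annotated as antisense, had 2.02 and 2.90 FPKM in WT and 0.206 and 0.203 in Piezo1KO (log2 fold change -1.51, limma adjusted p = 0.0741). Whether Snhg7os holds a snoRNA on its own strand was not checked. Snhg17 had 3.64 and 5.91 in WT and 1.33 and 2.82 in Piezo1KO (-0.93, limma adjusted p = 0.164). Epb41l4aos, the shortest of the tested hosts at 430 bases, had 9.91 and 15.9 in WT and 19.1 and 84.1 in Piezo1KO (1.61, limma adjusted p = 0.214). Snhg15, Snhg10 and Snhg20 had -0.03, 0.26 and 0.49.

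**Figure D3:**
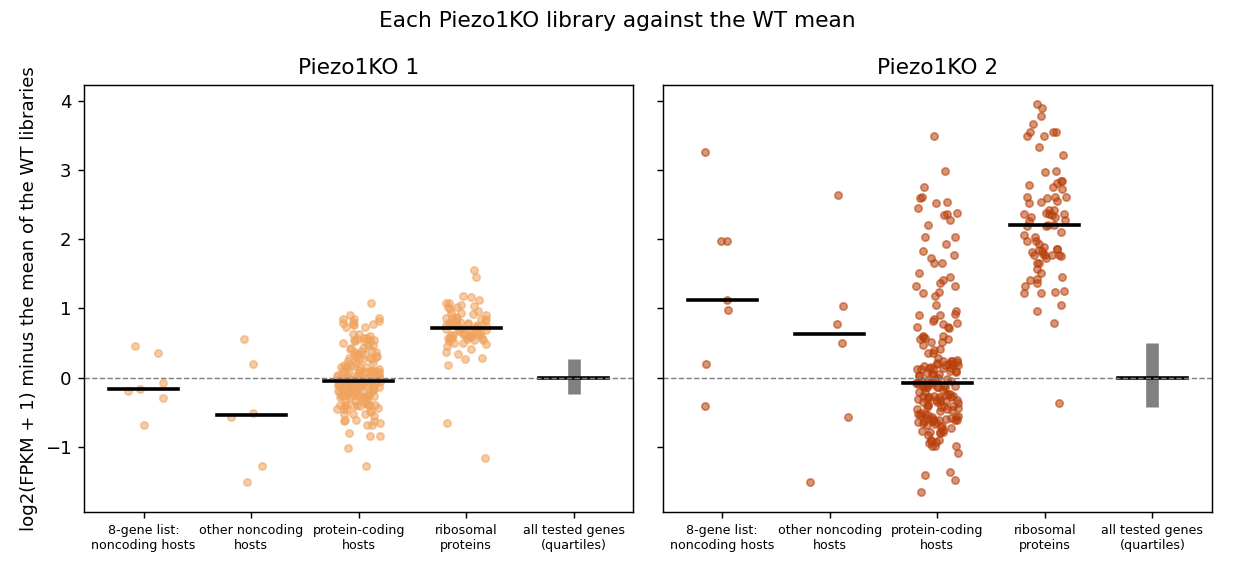
Difference in log2(FPKM + 1) of each Piezo1KO library (panels) from the mean of the WT libraries, with 1 point per tested gene, a black line at each list's median and a grey bar over the quartiles of all 11085 tested genes. The 7 tested hosts have a median of -0.17 in Piezo1KO 1 and 1.12 in Piezo1KO 2, beside 0.72 and 2.20 for ribosomal proteins.

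3 hosts start next to a protein-coding gene of the other strand. Slc3a2, the heavy chain of amino acid transporters, starts 106 bases from Snhg1. It stood at 99.7 and 103.6 FPKM in WT against 148.6 and 157.8 in Piezo1KO (log2 fold change 0.59, limma adjusted p = 0.140). Slc3a2 had -0.22 with scaling to all assigned reads, where the median of all genes was -0.67. It passed as higher without Piezo1KO 1 (0.63, limma adjusted p = 0.00819) and without Piezo1KO 2 (0.54, limma adjusted p = 0.0310). The groups of Slc3a2 did not overlap, while those of Snhg1 did. Znfx1, a helicase-like zinc finger protein, starts 81 bases from Zfas1 and overlaps it by 82 bases. It had 5.60 and 5.20 in WT and 3.58 and 2.75 in Piezo1KO (log2 fold change -0.63, limma adjusted p = 0.132), where Zfas1 had 1.17. Znfx1 passed as lower with scaling to all assigned reads (-1.24, limma adjusted p = 0.0421) and in voom (-1.60, limma adjusted p = 0.0351). The medians of all genes in those fits were -0.67 and -0.82. There 1466 of 11083 and 1323 of 11085 genes passed as lower. Without Piezo1KO 1 the log2 fold change of Znfx1 was -0.77. Zbtb37, a zinc finger gene that overlaps the start of Gas5 by 428 bases, had 1.08 and 1.05 in WT and 0.353 and 0.113 in Piezo1KO, a mean below the filter, and was not tested. Differences within these pairs were not tested.

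The proteins that act on snoRNAs and host transcripts gave 0 calls in limma in 4 lists of 8 to 19 genes, where 1.10% of all genes passed. Among 8 core proteins of snoRNA particles the median was 0.45. Nop10 had 26.4 and 24.4 FPKM in WT and 45.7 and 54.02 in Piezo1KO (log2 fold change 0.94, limma adjusted p = 0.0925). Fbl, the methyltransferase of box C/D particles, had 0.40, and Dkc1, the pseudouridine synthase of box H/ACA particles, had -0.41 (limma adjusted p of 0.165 and 0.185). 14 assembly factors had a median of 0.26, with Nufip1, Pih1d1 and Shq1 at 0.69, 0.81 and -0.40 (limma adjusted p of 0.127, 0.138 and 0.156).

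19 factors of nonsense-mediated decay had a median of -0.14, with 5 without overlap upward and 9 downward, beside 33.9% and 35.6% of all genes. Smg1, the kinase that phosphorylates Upf1, had 3.50 and 3.98 FPKM in WT and 1.77 and 1.32 in Piezo1KO (log2 fold change -0.90, limma adjusted p = 0.106). Magohb and Smg8 had 0.79 and -0.74 (limma adjusted p of 0.138 and 0.141). 13 regulators of TOP mRNAs had a median of -0.28. Eif4ebp1, a translation repressor that mTOR inactivates, had 41.9 and 39.4 FPKM in WT and 74.01 and 93.7 in Piezo1KO (1.02, limma adjusted p = 0.0990). Larp1, which binds the TOP motif, had 34.3 and 36.1 in WT and 22.9 and 16.2 in Piezo1KO (-0.84, limma adjusted p = 0.129), and Tsc1 had -0.53 (limma adjusted p = 0.138).

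Genes with the profile most like the mean of the 8 hosts were sought by the root mean square distance over the 4 libraries between centred log2(FPKM + 1) values, among 6222 genes with a mean of at least 5 FPKM. Gtf2a2, Coprs, Mdp1, Alkbh7 and Timm8a1 were nearest, at distances of 0.0267, 0.0480, 0.0536, 0.0554 and 0.0607. The hosts themselves lay 0.108 to 0.879 from their own mean. Gtf2a2, a subunit of the general transcription factor TFIIA, stood at 7.96 and 8.97 FPKM in WT against 7.71 and 20.05 in Piezo1KO, again with 1 high library. With 4 libraries such a likeness is a description.

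**Figure D4:**
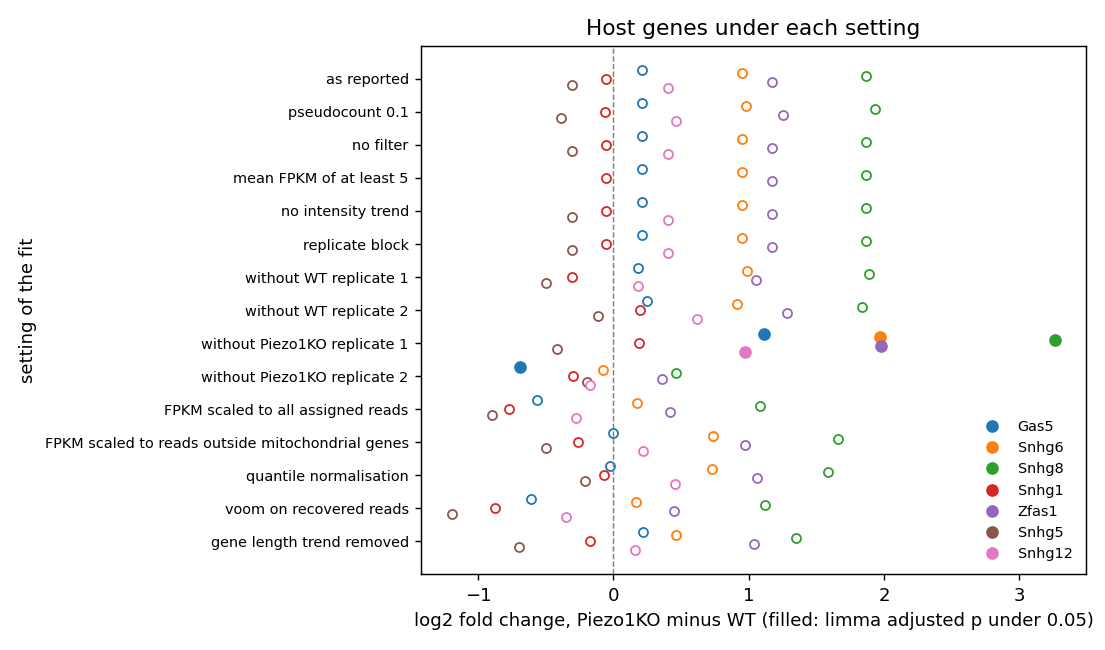
Log2 fold change of Piezo1KO minus WT (x axis) for the 7 tested hosts under each setting of the fit (y axis), filled where the limma adjusted p was under 0.05. Filled points appear only in the 2 settings without a Piezo1KO library: 5 higher without Piezo1KO 1, and Gas5 lower without Piezo1KO 2.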

How the data were processed

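The authors deposited 1 FPKM value per gene and library. The submitters' processing notes name fastp 0.19.7, featureCounts 1.5.0-p3 and the mm10 (GRCm38) build. No source used here names the aligner, the annotation release or the FPKM factor. Multiplying FPKM by gene length gave whole multiples of a step (100% of non-zero values, tolerance 0.05 reads), hence whole reads. The library size implied by that step was 1.26, 1.28, 0.962 and 0.544 times the assigned reads of WT 1, WT 2, Piezo1KO 1 and Piezo1KO 2, so deposited FPKM is not scaled to assigned reads.

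Genes with a mean of at least 1 FPKM entered limma 3.58.1 (R 4.3.3; lmFit and trended eBayes) on the log2(FPKM + 1) scale, as Piezo1KO minus WT, two-sided and Benjamini-Hochberg adjusted over all 11085 genes, threshold 0.05. The fit was run on simulated reads with the same spread set for every library. In the real libraries the median SD within a group was 0.0749 in WT and 0.206 in Piezo1KO. The simulation therefore does not show how the fit performs on these data. Exons came from GENCODE M21, where 53585 of 54495 shared genes had the same coordinates, and starts from RefSeq GRCm38.p6, where 7 of the 8 hosts matched. snoRNA rows were assigned to hosts by the table's coordinates, and neighbours are genes of the other strand that start within 1000 bases. Named were all 8 hosts, those neighbours, and of each list the genes that passed or else the 3 with the smallest p. Markers of cell types are given as sums and counts of calls, not by name, and 1 other gene that the rule named is not reported here. Hosts and lists were chosen with earlier results of these data known. The planned ratio of snoRNA to host reads was not compared, since snoRNA reads were at or under 1 per library. Alternatives were other pseudocounts, filters, scalings, voom, a length trend, a replicate block and leaving out each library.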

Additional observations from a re-analysis of the deposited data

How the results depend on the processing

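The count of hosts that passed was 0 under all alternatives other than leaving out a library, which gave 0 to 5: 5 without Piezo1KO 1 and 1 without Piezo1KO 2. The count of hosted snoRNA rows that passed was 0 under every alternative, with 1 row tested without a filter and none otherwise. Over all genes, the 122 calls became 1 without a filter, 68 at a mean of at least 5 FPKM, 264 with the replicate block, 1718 with FPKM scaled to all assigned reads, 192 after quantile normalisation, 1521 in voom, 47 with the length trend removed, and 0 to 5859 leaving out 1 library. Leaving out WT 1 or WT 2 gave the lowest, 0, where 723 and 616 genes had an unadjusted p under 0.05. Leaving out Piezo1KO 1 gave 5859, and Piezo1KO 2 gave 1579. Higher calls were 13.0% of all calls in voom. The cause of these shifts was not tested. Fewer genes, 6582, entered the fit under the filter at 5 FPKM.

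Snhg8, Zfas1 and Snhg5 kept their direction under every alternative in which they were tested, at 0.46 to 3.27, 0.36 to 1.98 and -1.19 to -0.11. Gas5 turned to -0.57 with scaling to all assigned reads, -0.0037 with scaling to reads outside mitochondrial genes, -0.021 after quantile normalisation and -0.61 in voom, and ranged from -0.69 to 1.12 leaving out 1 library. Snhg12 turned to -0.27 with scaling to all assigned reads and -0.35 in voom, and ranged from -0.17 to 0.97 leaving out 1 library. Leaving out 1 library gave -0.31 to 0.20 for Snhg1 (0.20 without WT 2 and 0.19 without Piezo1KO 1) and -0.074 to 1.97 for Snhg6. Slc3a2 turned to -0.22 with scaling to all assigned reads, -0.077 after quantile normalisation and -0.23 in voom. The host median ran from -0.17 to 1.12 leaving out 1 library and was -0.27 with scaling to all assigned reads and -0.35 in voom. Relative to the median of all genes in the same fit it was 0.41 as reported, 0.40 and 0.48 under those 2 settings, 0.19 with the length trend removed and 0.86 at a mean of at least 5 FPKM (5 hosts). It was 1.13 without Piezo1KO 1 and -0.17 without Piezo1KO 2.

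The titles number the libraries of both groups 1 and 2, but nothing says that a number marks a shared animal or day. Deviations of libraries with the same title number correlated at -0.033 across genes. By the column names WT2, WT3, KO1 and KO2, only WT 1 and Piezo1KO 2 share a number. The correlation and the replicate block follow the titles, and the other pairing was not fitted. With the replicate block 0 hosts passed. There 2 of the 7 tested hosts had an unadjusted p under 0.05, against 3003 of all 11085 genes. Counts were too low to compare for Snhg3, with 1 read in all, and Snord87, with 2. The planned ratio of hosted snoRNA reads to host reads, and its alternatives, gave no value, since those reads were at or under 1 per library.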
